A study of Mus musculus with 6 samples.

Results

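Axon guidance ligands and receptors were followed in D4M-3A cells, a mouse melanoma line with mutant Braf, by RNA sequencing of control and Nfkbiz knockout cells. Members were taken by the pattern of the gene symbol alone: semaphorins (Sema3 to Sema7), plexins, neuropilins, ephrins, Eph receptors, slits, robos, netrins and the Unc5 receptors. This gave 68 genes of 43043 in the tables, 35 ligands and 33 receptors, and 55 of them had at least 10 gene reads in 3 or more samples and could be tested, among 14533 genes tested in all. The 3 control samples (Ctrl) carried an empty CRISPR-Cas9 construct and the 3 Nfkbiz KO samples a construct directed at Nfkbiz, which encodes the transcriptional co-activator IκBζ. Both groups were transduced with lentivirus, selected with puromycin and grown in RPMI-1640 with FCS, and the labels give no further treatment. The sources used here do not say whether either group was derived from single clones, so a difference between separately selected cell populations cannot be told apart from the knockout.

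Guidance cues steer growing axons and migrating cells by attraction or repulsion, and most act through the cytoskeleton of the cell that carries the receptor. Secreted class 3 semaphorins bind neuropilins, which signal through type A plexins or plexin D1, whereas most membrane-bound semaphorins bind plexins directly. Ephrins are tethered to the cell surface and signal to Eph receptor tyrosine kinases on the neighbouring cell, often with a reverse signal into the ephrin-bearing cell. Slits act on robos, and netrins on Dcc, neogenin and the Unc5 receptors. Melanocytes descend from the neural crest, whose migration uses many of these cues, and tumor cells commonly express them.

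The targeted transcript was lower but still present in the knockout. Nfkbiz had 69.1, 75.2 and 63.4 TPM (transcripts scaled to gene length and library size) in Ctrl replicates 1, 2 and 3, and 34.8, 34.7 and 35.1 TPM in the Nfkbiz KO replicates. The groups did not overlap, with a log2 fold change of -0.98 (SE 0.056, adjusted p = 5.6e-08). A frameshift can leave the transcript in place, so this level checks the labels but not the loss of the protein. The study checked the knockout of IκBζ in D4M-3A cells by immunoblot. Libraries held 32219900 to 44927203 gene reads, and the Ctrl replicates differed more among themselves than the Nfkbiz KO replicates did. Of 37 tested members with a mean of at least 1 TPM in either group, 32 had their lowest Ctrl level in TPM in Ctrl replicate 3 (86.5%), against 54% of the 12087 tested genes at that level. In library-scaled reads with TMM factors (CPM, not corrected for length), the figures were 28 of 37 members (75.7%) and 37.6% of the genes. Without Ctrl replicate 3, 33 members passed the test in place of 35, and 36.7% of all genes tested in place of 36.3%.

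The label melanoma could not be checked well by lineage genes. Of 7 melanocyte markers, 6 were under 1 TPM in every sample and Sox10 and Tyr had no read anywhere, and the list summed to 1.11 to 1.74 TPM in the controls and 1.27 to 1.68 TPM in the knockouts. Markers of leukocytes stayed at or below 0.241 TPM in sum. The sum of 4 endothelial markers was 0.55 to 0.827 TPM in the controls and 1.32 to 1.85 TPM in the knockouts, where Cdh5 rose (log2 fold change 1.34, adjusted p = 0.0023), with Kdr at or below 0.0697 TPM. That of 4 neuron markers was 0.0521 to 0.116 and 0.705 to 0.785 TPM, where Stmn2 rose, with Rbfox3 at or below 0.013 TPM. Schwann cell markers overlapped, with sums of 0.578 to 1.05 and 0.486 to 1.18 TPM. Fibroblast markers, led by Col1a1, summed to 389 to 446 TPM in the controls and 292 to 322 TPM in the knockouts, while Pdgfra had 36.7 ± 3.83 and 39.5 ± 0.992 TPM (SD, n = 3, adjusted p = 0.99). The part of these shifts in the results given here was not tested, and in bulk RNA fewer cells of a kind and less RNA per cell cannot be told apart.

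Guidance genes moved in both directions in the knockout. Plxna4, a semaphorin receptor that pairs with neuropilins for Sema3a, rose 3.08-fold, and Sema3a rose 2.13-fold. Sema3f, Sema3c, the ephrin Efna4 and the receptor Plxnb1 fell by 2.08-fold to 2.76-fold. All 6 also differed by more than 4 TPM between the group means, the thresholds by which the study defined regulated genes, if its difference is read in TPM. These 6 were 10.9% of the members tested, and 1.78% of all genes tested passed the same thresholds. Sema3a, Sema3f and Nrp2 are in a gene list that the study drew from these samples, so their direction here is not independent evidence.

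By the quasi-likelihood test of edgeR, with p adjusted over all genes tested (Benjamini-Hochberg) and a threshold of 0.05, 35 of the 55 tested members changed, or 63.6%, against 36.3% of all genes tested. Of these, 15 were higher in Nfkbiz KO (18% of all genes tested were) and 20 were lower (18.2% of all genes tested). The median log2 fold change of the members was -0.04 and that of all genes tested was -0.02. A fold change above 2 was reached by 10 members, 3 higher and 7 lower, which is 18.2% beside 5.88% over all genes. In 36 members the CPM of the groups did not overlap, 65.5% beside 48.2% over all genes, 16 higher (23.8% of all genes) and 20 lower (24.4%). On deposited TPM, which is set against exon reads of the whole library without TMM factors, 35 did not overlap, beside 47.5% of all genes, 21 higher (32.7% of all genes) and 14 lower (14.9%). With 3 samples against 3, the exact two-sided permutation test of a gene cannot go below 0.1. On the scale of log2(TPM + 1), where limma was used, 24 members changed and the split turned to 13 higher and 11 lower. Over all genes, 29.7% passed on that scale, 20.6% higher and 9.1% lower, and the median log2 fold change was 0.06. Calls on Sema4c, Sema6c, Slit2, Epha4, Ephb4, Plxna1, Plxna3, Efna5, Efnb2, Nrp1, Unc5b and Unc5d were lost there, and Unc5a was gained.

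Abundance varied widely among the members. Of the 37 tested members with a mean of at least 1 TPM in either group, 31 changed, beside 40.1% of all genes at that level, and of the 18 tested members below it 4 changed, beside 17.4%. In Ctrl, 26 members had a mean over 10 TPM and 4 had a mean over 100 TPM: Plxnb2 (222 ± 24.7 TPM, SD, n = 3), Epha2 (145 ± 16.6), Unc5b (138 ± 10.6) and Sema7a (113 ± 7.46). Among these, the levels of Epha2 and Unc5b differed by less than their spread. The 13 untested members never exceeded 12 reads in a sample. They were Sema3e, Sema3g, Sema4f, Sema5b, Plxnb3, Epha6, Epha8, Epha10, Ephb1, Robo1, Robo3, Robo4 and Ntn5. Plxnb3, Ephb1 and Robo4 had no read in any library, and 3 reads, the limit that a count of 0 allows, correspond to 0.0668 to 0.0931 CPM by library.

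**Figure D1:**
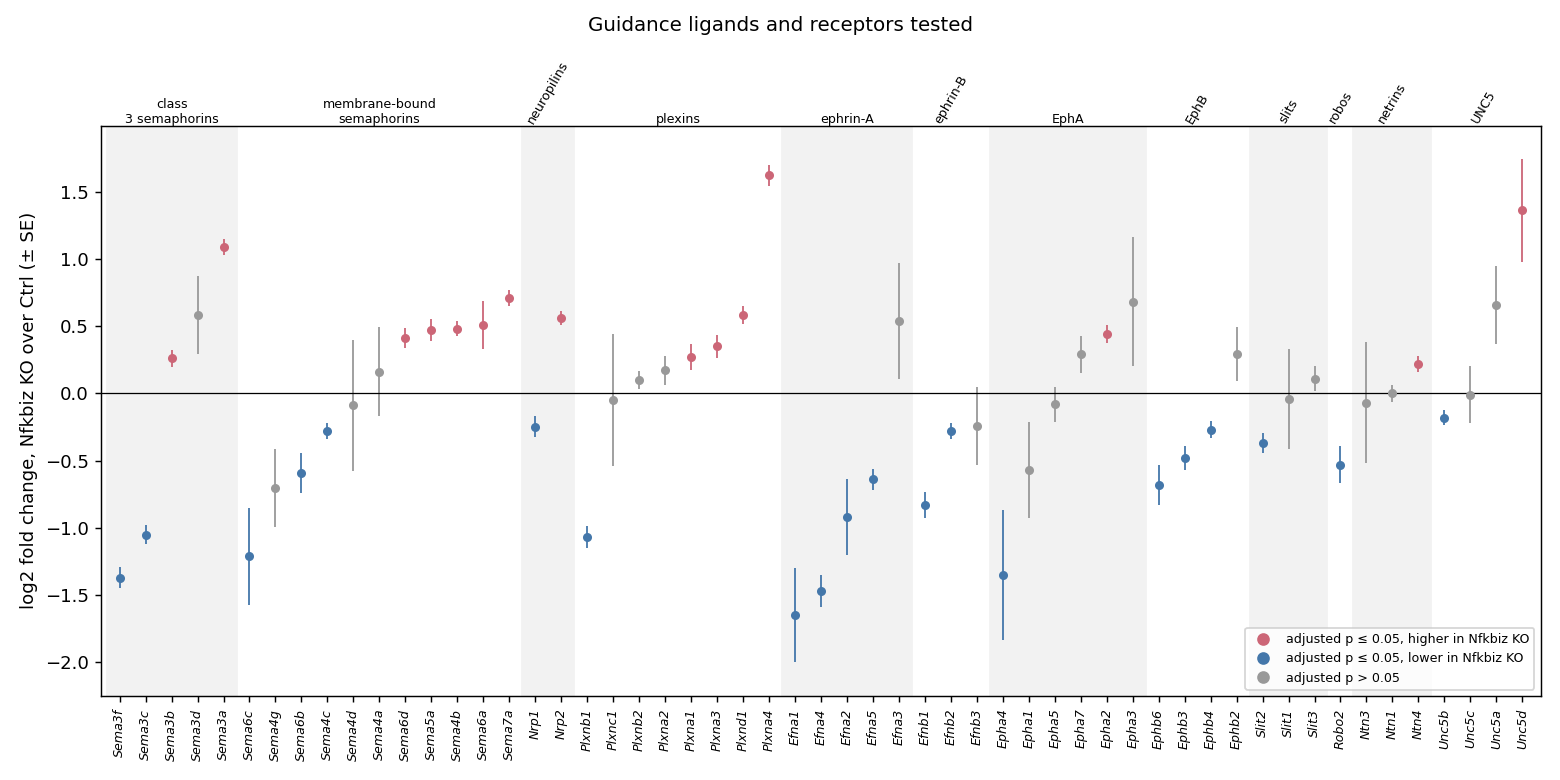
Log2 fold change of Nfkbiz KO over Ctrl (vertical axis, with its SE) for the 55 tested members, grouped by family and ordered by size within each. Red points are the 15 members higher and blue points the 20 members lower at an adjusted p of 0.05 or less, and grey points the 20 that did not pass. Ephrins lie mostly below 0 and Plxna4 lies highest.

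Upstream sequence is shown for the members past the study's thresholds, so that the start regions of genes that rose and fell can be set side by side. RefSeq promoters of build GRCm38.p6 were matched by symbol for 59 of the 68 members. Sema3f and Plxna4 were not among them. The 250 bases before the annotated start are printed on the strand of the gene, 5′ to 3′, with every CpG dinucleotide in capitals. Sema3a lies at chr5:13396534-13396783 (plus strand), Sema3c at chr5:17574566-17574815 (plus), Plxnb1 at chr9:109095186-109095435 (plus) and Efna4 at chr3:89338029-89338278 (minus).
Sema3a: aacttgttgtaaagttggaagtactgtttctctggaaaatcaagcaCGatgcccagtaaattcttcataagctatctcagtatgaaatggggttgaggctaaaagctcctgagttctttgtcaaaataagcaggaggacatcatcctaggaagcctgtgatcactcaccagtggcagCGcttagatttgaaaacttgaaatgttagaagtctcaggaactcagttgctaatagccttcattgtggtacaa
Sema3c: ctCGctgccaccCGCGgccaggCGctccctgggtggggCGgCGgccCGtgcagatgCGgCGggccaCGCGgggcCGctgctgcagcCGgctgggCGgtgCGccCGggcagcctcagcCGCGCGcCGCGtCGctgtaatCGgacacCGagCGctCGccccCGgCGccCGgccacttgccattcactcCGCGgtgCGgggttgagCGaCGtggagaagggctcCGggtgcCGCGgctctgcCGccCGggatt
Plxnb1: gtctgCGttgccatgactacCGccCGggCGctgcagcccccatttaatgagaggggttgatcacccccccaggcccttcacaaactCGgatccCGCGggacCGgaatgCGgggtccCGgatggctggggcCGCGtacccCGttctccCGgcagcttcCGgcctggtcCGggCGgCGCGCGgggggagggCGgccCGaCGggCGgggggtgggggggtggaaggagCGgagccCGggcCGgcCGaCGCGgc
Efna4: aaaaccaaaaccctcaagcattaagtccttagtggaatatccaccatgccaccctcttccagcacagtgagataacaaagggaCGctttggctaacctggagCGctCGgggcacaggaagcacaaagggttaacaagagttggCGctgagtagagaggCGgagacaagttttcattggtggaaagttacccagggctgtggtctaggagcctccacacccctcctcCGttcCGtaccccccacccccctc
The Sema3a stretch, of the gene that rose, held 2 CpG and 40.8% G and C. Of the genes that fell, Sema3c held 39 CpG (78.4% G and C), Plxnb1 30 (75.2%) and Efna4 7 (54.4%), beside a median of 6 CpG and 52.4% over all 32851 promoters in the table. Over the promoters of changed members, the median was 16.5 CpG for the 12 promoters of the 10 higher members. It was 16 for the 25 promoters of the 19 lower members.

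Neither the NF-κB consensus motif (κB) nor the STAT-type motif TTCNNNGAA occurred on either strand of these 4 stretches. The κB consensus was found in 7.25% of all promoters and in 5 of the 75 promoters of members (Ephb1, Ephb2, Plxna3, Sema4a and Sema4c), of which Plxna3 and Sema4c changed. The STAT-type motif was found in 7.02% of all promoters and in 2 of those of members (Efna3 and Epha3), neither of which passed the test. A match of letters is no measure of binding, and its absence covers only these windows. The Sema3a start used by RefSeq matched a GENCODE transcript start exactly but lay 271463 bases downstream of the outermost of 14 transcript starts, and the start used in D4M-3A cells was not measured.

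Class 3 semaphorins changed in opposite directions. Of the 7 genes 5 were tested, and Sema3a and Sema3b rose while Sema3c and Sema3f fell. These 4 were 80% of those tested, beside 36.3% of all genes tested. Sema3a, the prototype of a growth cone collapsing cue that acts through neuropilin 1, lies at chr5:13175288-13653578 on the plus strand (GRCm39, as are the gene positions that follow). Its level was 36.3, 42.2 and 33.4 TPM in Ctrl replicates 1, 2 and 3, and 84.0, 85.7 and 86.9 TPM in the Nfkbiz KO replicates. Every knockout replicate lay above every control replicate, and the log2 fold change was 1.09 (SE 0.059, adjusted p = 3.6e-08). Sema3b, which acts through neuropilins and has been studied as a tumor suppressor, rose by less, from 17.2 ± 0.678 to 22.0 ± 0.886 TPM (SD, n = 3, log2 fold change 0.26, adjusted p = 0.0063).

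Sema3f, which signals through neuropilin 2, lies at chr9:107558698-107587674 (minus). It had 21.8, 20.5 and 17.7 TPM in the Ctrl replicates and 8.61, 8.41 and 7.88 TPM in the Nfkbiz KO replicates. The groups were far apart, with a log2 fold change of -1.37 (SE 0.078, adjusted p = 5.4e-08). Sema3c, which can use either neuropilin and plexin D1, had 23.6, 27.9 and 21.7 TPM in the controls and 11.7, 13.2 and 12.8 TPM in the knockouts. It also fell in every comparison of samples (log2 fold change -1.05, SE 0.072, adjusted p = 2.7e-07), though without Ctrl replicate 2 the log2 fold change was -0.98 and no longer past 2-fold. Sema3d was low, with a log2 fold change of 0.58 that did not pass (adjusted p = 0.15), and Sema3e and Sema3g had at most 8 reads.

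The mix of secreted semaphorins therefore differed between the groups. Sema3a made up 36.4%, 38.9% and 37.4% of the summed TPM of class 3 semaphorins in the Ctrl replicates and 66.2%, 65.7% and 67.3% in the Nfkbiz KO replicates. Sema3c went from 24.5 ± 1.06% to 9.76 ± 0.446% (SD, n = 3) and Sema3f from 20.2 ± 1.52% to 6.44 ± 0.344%, whereas Sema3b held 17.4 ± 1.09% and 17.0 ± 0.691%. Sema3a transcripts thus outnumbered those of Sema3f 1.87 ± 0.195 to 1 in Ctrl and 10.3 ± 0.649 to 1 in Nfkbiz KO. The sum of the family was 99.2 ± 9.63 TPM in the controls and 129 ± 1.87 TPM in the knockouts. No test was made of sums or shares.

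Some members on the same chromosome moved apart and others together. Genes between the members were not looked at. Sema3d, Sema3a, Sema3e and Sema3c lie in that order between chr5:12433124 and chr5:17935648, where Sema3a rose and Sema3c fell. These last 2 are not adjacent, as Sema3a ends at chr5:13653578 and Sema3c starts at chr5:17779219. Sema3b (chr9:107474872-107486456) and Sema3f lie on the same strand of chromosome 9, and Sema3b rose where Sema3f fell. Efna1, Efna3 and Efna4 lie within chr3:89179037-89245373 on the minus strand, and there Efna1 and Efna4 fell while Efna3 did not pass.

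Of 13 membrane-bound semaphorins 11 were tested, 5 rose, 3 fell and 3 did not pass. The 8 that changed were 72.7% of those tested, beside 36.3% of all genes tested. Sema7a, a semaphorin anchored to the membrane by a lipid that binds integrins and plexin C1, was the most abundant semaphorin. Its level was 119, 116 and 105 TPM in the Ctrl replicates and 207, 197 and 190 TPM in the Nfkbiz KO replicates. The groups were clearly separate (log2 fold change 0.71, SE 0.057, adjusted p = 1e-06). Its named receptor Plxnc1 was near the limit of the test in both groups, at 0.134 ± 0.0782 and 0.15 ± 0.057 TPM (SD, n = 3, adjusted p = 0.95).

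The other members of this class that rose did so by less than 1.5-fold in CPM. Sema4b, a transmembrane ligand, had a log2 fold change of 0.48 (adjusted p = 3.8e-05) and went from 49.1 ± 4.3 to 73.9 ± 2.64 TPM (SD, n = 3). Sema5a, marked by thrombospondin repeats, went from 28.2 ± 4.95 to 42.4 ± 0.0715 TPM (log2 fold change 0.47, adjusted p = 0.00085) and Sema6d, a ligand of plexin A1, from 14.4 ± 1.7 to 20.6 ± 0.515 TPM (0.41, adjusted p = 0.00089). Sema6a, a ligand of plexins A2 and A4, was low at 0.669 ± 0.0348 and 1.08 ± 0.0861 TPM. Its log2 fold change of 0.51 passed narrowly (adjusted p = 0.046) and did not pass without Ctrl replicate 2 (adjusted p = 0.13), Ctrl replicate 3 (0.06), Nfkbiz KO replicate 1 (0.16) or Nfkbiz KO replicate 3 (0.12).

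Lower were Sema6b, Sema6c and Sema4c. Sema6b, a transmembrane ligand of plexin A4, had 4.12, 4.08 and 4.14 TPM in the controls and 3.22, 3.15 and 2.47 TPM in the knockouts, without overlap (log2 fold change -0.59, SE 0.15, adjusted p = 0.0078). Sema6c was rare, with 0.819, 0.421 and 0.51 TPM in the controls and 0.131, 0.273 and 0.294 TPM in the knockouts. Its groups did not overlap (log2 fold change -1.21, SE 0.36, adjusted p = 0.02), but it rested on 9 to 51 reads a sample and did not pass without Ctrl replicate 1 (adjusted p = 0.082), Nfkbiz KO replicate 1 (0.072) or Nfkbiz KO replicate 2 (0.052). Sema4c, a ligand of plexin B2, went from 36.1 ± 1.1 to 31.9 ± 2.45 TPM (log2 fold change -0.28, adjusted p = 0.0037 on reads, 0.089 with limma on log2(TPM + 1)). Sema4a, Sema4d and Sema4g stayed below 0.6 TPM in every sample and did not pass, with log2 fold changes of 0.16, -0.09 and -0.70 (adjusted p of 0.75, 0.91 and 0.083). Summed TPM of the class was 247 ± 18 in Ctrl and 372 ± 12.5 in Nfkbiz KO.

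**Figure D2:**
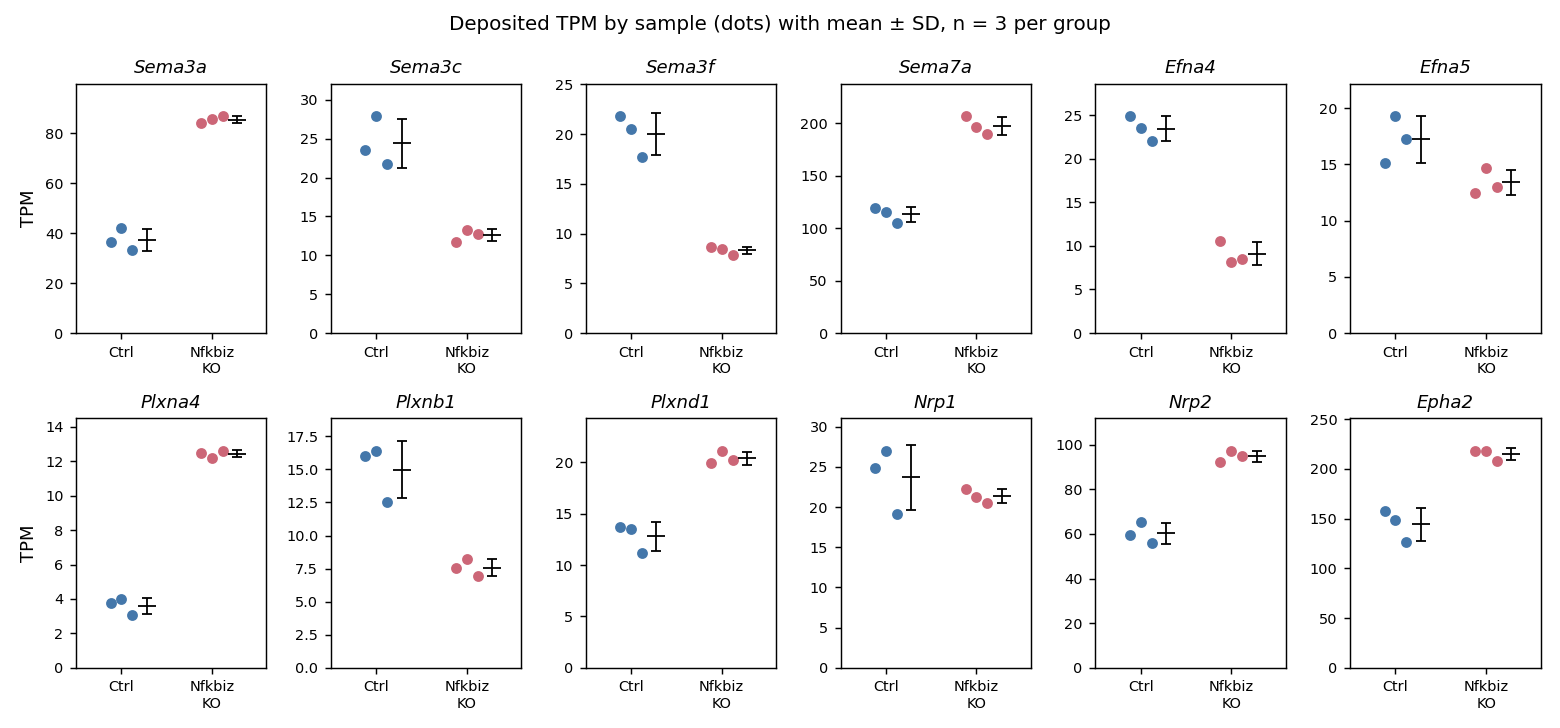
Deposited TPM (vertical axis, starting at 0) of 12 ligands and receptors in each sample, with Ctrl in blue and Nfkbiz KO in red and the mean with its SD in black (n = 3 per group). Sema3a, Sema7a, Plxna4, Plxnd1, Nrp2 and Epha2 are higher in every Nfkbiz KO sample, Sema3c, Sema3f, Efna4, Efna5 and Plxnb1 are lower in every one, and Nrp1 overlaps.

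Among semaphorin receptors, Plxna4 and Plxnb1 moved most and in opposite directions. Plxna4, a plexin that pairs with neuropilins for Sema3a and binds class 6 semaphorins directly, lies at chr6:32121203-32565193 (minus). It had 3.74, 3.99 and 3.09 TPM in the Ctrl replicates and 12.5, 12.2 and 12.6 TPM in the Nfkbiz KO replicates. No other member that rose did so by as much (log2 fold change 1.62, SE 0.076, adjusted p = 9.2e-09). It stayed well below Plxna1, at 0.0426 ± 0.00363 Plxna4 transcripts for each of Plxna1 in Ctrl and 0.112 ± 0.00702 in the knockouts (SD, n = 3).

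Plxnb1, the receptor of Sema4d, lies at chr9:108923419-108950427 (plus) and had 16, 16.4 and 12.5 TPM in the controls and 7.55, 8.21 and 6.95 TPM in the knockouts. It fell in all knockout samples (log2 fold change -1.07, SE 0.083, adjusted p = 7.4e-07), while its ligand Sema4d was nearly absent in both groups. Plxnd1, the receptor of Sema3e, rose from 12.8 ± 1.38 to 20.4 ± 0.607 TPM (log2 fold change 0.58, adjusted p = 2.5e-05). Its ratio to Plxnb1 went from 0.861 ± 0.0393 to 2.71 ± 0.182.

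The other plexins moved little. Plxna3 rose from 9.28 ± 1.45 to 12.6 ± 0.909 TPM (SD, n = 3, log2 fold change 0.35, adjusted p = 0.0072 on reads, 0.055 with limma on log2(TPM + 1)). Plxna1, the most abundant type A plexin, rose with a log2 fold change of 0.27 (adjusted p = 0.041), from 85.7 ± 16.8 to 111 ± 6.07 TPM. That value was 0.14 without Ctrl replicate 3, and it did not pass without Nfkbiz KO replicate 1 (adjusted p = 0.14), 2 (0.11) or 3 (0.057). Plxnb2, a receptor of class 4 semaphorins and the most abundant member, had 222 ± 24.7 and 254 ± 8.39 TPM and did not pass (log2 fold change 0.10, adjusted p = 0.26), nor did Plxna2 (0.17, adjusted p = 0.25). The 9 plexins summed to 353 ± 47.9 TPM in the controls and 424 ± 15.5 TPM in the knockouts.

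Neuropilins, the co-receptors of class 3 semaphorins and of VEGF, moved in opposite directions. Nrp2 rose from 60.2 ± 4.78 to 94.8 ± 2.51 TPM (SD, n = 3, log2 fold change 0.56, SE 0.052, adjusted p = 4e-06), while its ligand Sema3f fell. Nrp1 fell slightly, with a log2 fold change of -0.25 (adjusted p = 0.025), and its groups overlapped. The call on Nrp1 was lost without each library but Ctrl replicate 3 (adjusted p of 0.052 to 0.098). The ratio of Nrp2 to Nrp1 was 2.38, 2.42 and 2.92 in the Ctrl replicates and 4.12, 4.57 and 4.63 in the Nfkbiz KO replicates, so that every knockout sample carried a higher share of Nrp2.

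**Figure D3:**
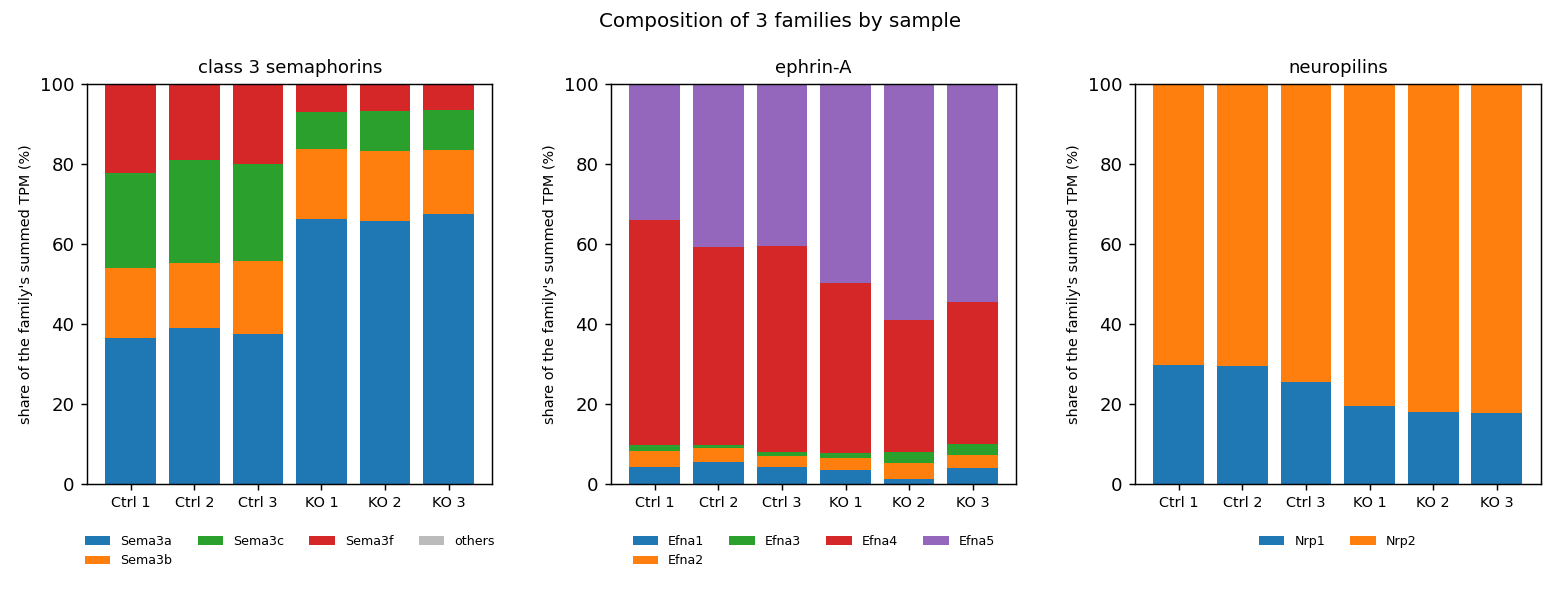
Share of each member in the summed TPM of its family (vertical axis, percent) in each of the 6 samples, for class 3 semaphorins, ephrin-A ligands and neuropilins. Sema3a takes 66.4% on average in Nfkbiz KO and 37.6% in Ctrl, Efna4 takes 37% and 52.4%, and Nrp2 takes 81.6% and 71.9%.

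Ephrins were lower in the knockout: of 8 tested, 6 fell, none rose and 2 did not pass. Over all genes tested, 18.2% were lower and 18% higher. On the scale of log2(TPM + 1), Efna5 and Efnb2 did not pass but kept their direction. Efna4, an ephrin-A anchored to the membrane by a lipid, lies at chr3:89240695-89245373 (minus). It had 24.9, 23.5 and 22.0 TPM in the controls and 10.6, 8.21 and 8.47 TPM in the knockouts. The groups were far apart (log2 fold change -1.47, SE 0.12, adjusted p = 9.9e-07).

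Efna1, the best known ligand of EphA2 and inducible by TNF in endothelium, had 1.81, 2.63 and 1.78 TPM in the controls and 0.851, 0.295 and 0.952 TPM in the knockouts. It was low but lower in each knockout sample (log2 fold change -1.65, SE 0.35, adjusted p = 0.0029), on 8 to 55 reads. Efna5, a broadly binding ephrin-A with a role in retinal mapping, had 15.1, 19.3 and 17.3 TPM in the controls and 12.5, 14.7 and 13.0 TPM in the knockouts. Its samples came close to each other in TPM but not in reads, with 997 to 1127 gene reads in Ctrl and 528 to 801 in Nfkbiz KO (log2 fold change -0.64, SE 0.075, adjusted p = 2.8e-05), and 75.4% of its Ctrl reads and 84.8% of its Nfkbiz KO reads lay in exons. Efna2 had 1.78, 1.61 and 1.21 TPM in the controls and 0.731, 0.971 and 0.78 TPM in the knockouts. It fell (log2 fold change -0.92, SE 0.28, adjusted p = 0.02), but not past the threshold without Ctrl replicate 1 (adjusted p = 0.05, just above the threshold before rounding), Nfkbiz KO replicate 1 (0.059) or Nfkbiz KO replicate 3 (0.063). Efna3 was low and did not pass (log2 fold change 0.54, adjusted p = 0.36).

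The ephrin-A sum was 44.3, 47.4 and 42.7 TPM in the Ctrl replicates and 25, 24.9 and 23.8 TPM in the Nfkbiz KO replicates. Efna5 took the lead from Efna4 in the mix, with 0.739 ± 0.116 Efna5 transcripts for each of Efna4 in Ctrl and 1.5 ± 0.307 in the knockouts (SD, n = 3). Of the transmembrane ephrin-B ligands, Efnb1 had 16.8, 14.5 and 13.7 TPM in the controls and 9.83, 8.68 and 8.81 TPM in the knockouts. Its decrease was clear of the spread (log2 fold change -0.83, SE 0.098, adjusted p = 2.9e-05). Efnb2, the partner of EphB4 in arteries and veins, was the most abundant ephrin and fell from 72.0 ± 6.1 to 63.6 ± 3.83 TPM (log2 fold change -0.28, adjusted p = 0.0025), with the lowest control (65.6 TPM) below the highest knockout (67.8 TPM). Efnb3 did not pass, at 1.31 ± 0.725 and 1.1 ± 0.142 TPM (log2 fold change -0.24, adjusted p = 0.56).

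Eph receptors diverged from each other. Epha2, a receptor tyrosine kinase often high in melanoma, made up 98.9 ± 0.167% of the EphA sum in Ctrl and 99 ± 0.0812% in Nfkbiz KO. It had 158, 149 and 126 TPM in the Ctrl replicates and 218, 218 and 208 TPM in the Nfkbiz KO replicates, higher in every knockout sample (log2 fold change 0.44, SE 0.066, adjusted p = 0.00023). Its ligand Efna1 fell in the same samples.

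Epha4, which binds ephrins of both types, was rare, with 0.253, 0.103 and 0.16 TPM in the controls and 0.0691, 0.134 and 0 TPM in the knockouts. Its TPM overlapped between the groups, and its log2 fold change of -1.35 (SE 0.48, adjusted p = 0.042) rested on 5 to 28 reads. It passed in 8 of 16 settings and not without Ctrl replicate 1 (adjusted p = 0.16), Ctrl replicate 3 (0.056), Nfkbiz KO replicate 1 (0.093) or Nfkbiz KO replicate 3 (0.15). Epha1, Epha3, Epha5 and Epha7 did not pass (log2 fold changes -0.57, 0.68, -0.08 and 0.29, adjusted p of 0.25, 0.3, 0.66 and 0.14). Of the reads on Epha5, 13.4% mapped uniquely.

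Of 4 EphB receptors tested 3 fell and none rose, beside 18.2% lower and 18% higher of all genes tested. Ephb6, which lacks kinase activity, had 6.08, 4.98 and 5.62 TPM in the controls and 3.77, 4.41 and 3.21 TPM in the knockouts. All knockout samples lay below the controls (log2 fold change -0.68, SE 0.15, adjusted p = 0.0033). Ephb3 fell from 8.09 ± 0.894 to 6.15 ± 0.213 TPM (log2 fold change -0.48, adjusted p = 0.0013), and Ephb4, the receptor of ephrin-B2 and the most abundant EphB, from 55.3 ± 3.84 to 49.1 ± 3.77 TPM (SD, n = 3, log2 fold change -0.27, adjusted p = 0.0059) with overlapping TPM. Ephb2 did not pass (0.29, adjusted p = 0.28). The EphB sum was 69.3 ± 4.95 TPM in the controls and 59.6 ± 4.17 TPM in the knockouts, and the ephrin-B sum 88.3 ± 7.47 and 73.8 ± 4.55 TPM.

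Slits and robos were lower or did not pass. Of 3 slits tested 1 fell, as did the 1 robo tested, beside 18.2% of all genes tested. Slit2, a secreted repellent, fell from 39.1 ± 6.06 to 32.8 ± 0.695 TPM (SD, n = 3, log2 fold change -0.37, adjusted p = 0.002), but in TPM Ctrl replicate 3, at 32.5, lay within the Nfkbiz KO range of 32 to 33.3. Its receptor Robo2 was low and fell from 0.82 ± 0.0532 to 0.643 ± 0.027 TPM (log2 fold change -0.53, adjusted p = 0.0087), while Robo1 and Robo3 had at most 12 reads. Slit1 and Slit3 did not pass (log2 fold changes -0.04 and 0.11, adjusted p of 0.94 and 0.37).

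Netrins and the abundant receptor Unc5b moved little. Ntn1, the founding netrin, had 35.1 ± 3.57 TPM in the controls and 37.4 ± 1.12 TPM in the knockouts (SD, n = 3), with a log2 fold change of 0.00 (SE 0.064, adjusted p = 0.97). Ntn4, a netrin of basement membranes, rose from 23.1 ± 1.1 to 28.7 ± 1.25 TPM (log2 fold change 0.22, adjusted p = 0.014), without passing when Nfkbiz KO replicate 1 (adjusted p = 0.054) or Nfkbiz KO replicate 2 (0.077) was left out. Ntn3 did not pass (log2 fold change -0.07, adjusted p = 0.92). Unc5b, a netrin receptor with a role in vessels, held 99.4% of the Unc5 sum in Ctrl and went from 138 ± 10.6 to 131 ± 3.86 TPM. Its small decrease passed (log2 fold change -0.18, adjusted p = 0.026), but not without Ctrl replicate 1 (adjusted p = 0.099) or any Nfkbiz KO replicate (0.059 to 0.12).

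Unc5d, another repulsive netrin receptor, had 8, 17 and 8 gene reads in the Ctrl replicates and 27, 30 and 30 in the Nfkbiz KO replicates. Its reads were higher in every knockout sample (log2 fold change 1.36, SE 0.38, adjusted p = 0.014), whereas its TPM overlapped, with 0.0422, 0.0904 and 0.0164 in Ctrl and 0.0845, 0.0878 and 0.12 in Nfkbiz KO. Only 45.5% of the Ctrl and 34.5% of the Nfkbiz KO reads lay in exons, and exon reads were too few to test. Unc5a and Unc5c did not pass (log2 fold changes 0.66 and -0.01, adjusted p of 0.093 and 0.97).

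**Figure D4:**
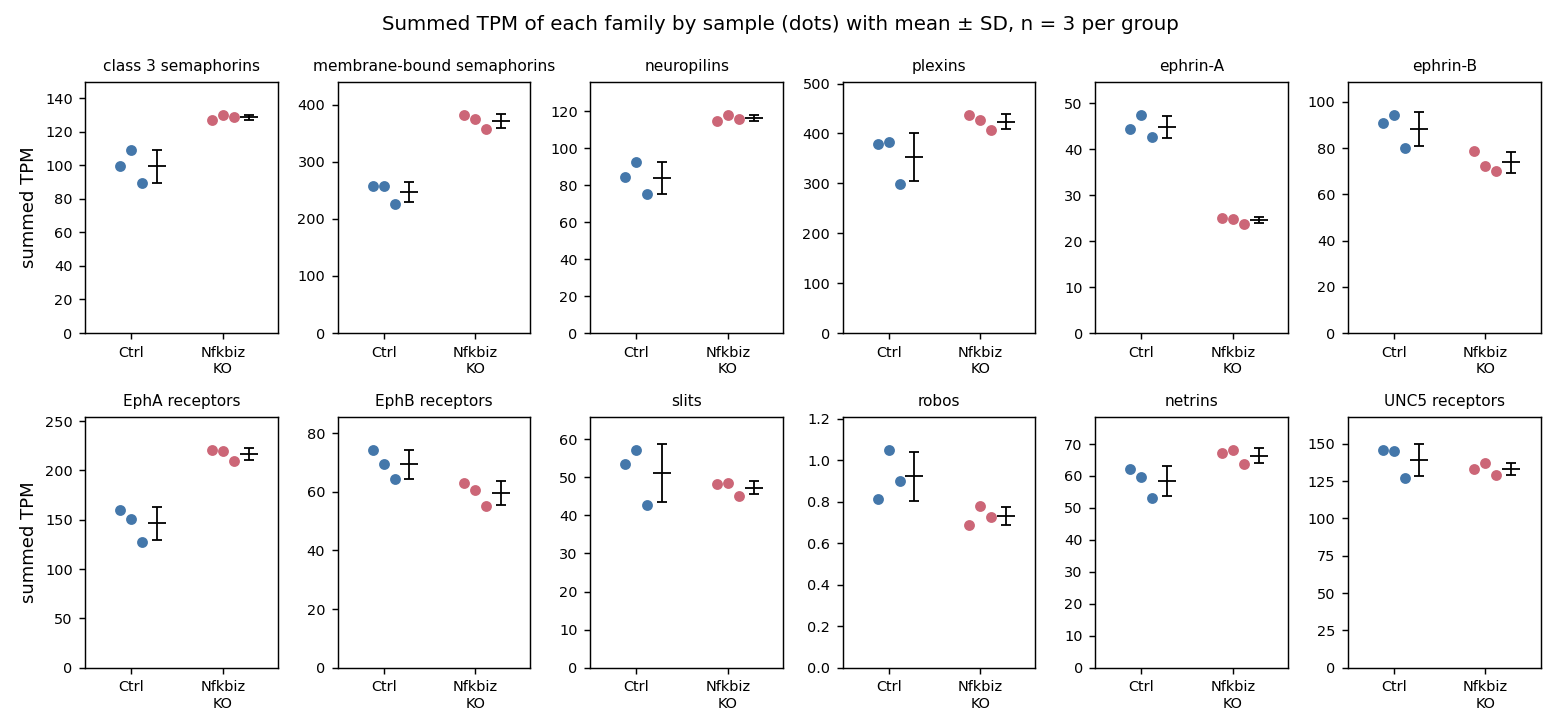
Summed TPM of each of the 12 families (vertical axes, starting at 0, a separate scale in each panel) in each sample, with the mean and its SD (n = 3 per group). Semaphorins, neuropilins, plexins, EphA receptors and netrins are higher in every Nfkbiz KO sample, ephrins, EphB receptors and robos are lower, and slits and Unc5 receptors overlap. The sums were not tested. In deposited TPM, 32.7% of all genes tested were higher without overlap and 14.9% lower. Plxnb2 made up 63% of the plexin sum and Ntn1 60% of the netrin sum in Ctrl, and neither passed on gene reads.

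The other genes of these pathways, 80 co-receptors, further ligands and cytoplasmic effectors listed from textbook knowledge, changed in both directions as well. Of 64 tested, 31 changed (48.4%, beside 36.3% of all genes tested), and the median log2 fold change was -0.04. Of these, 13 were higher and 18 lower, beside 18% and 18.2% of all genes tested. All 31 were among the 62 with a mean of at least 1 TPM in either group, where 40.1% of all genes changed. The pathway genes Ngef, Chn1 and Enah are in the gene list the study drew from these samples, so their direction is not independent evidence. On the scale of log2(TPM + 1), 27 of the 64 changed, beside 29.7% of all genes on that scale. The split was 15 higher and 12 lower, beside 20.6% and 9.1% of all genes.

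Among co-receptors and further ligands, 4 rose and 3 fell of 11 tested (63.6% changed, beside 36.3% of all genes tested). Nrcam, an adhesion molecule that associates with neuropilin 2, fell from 1.58 ± 0.273 to 0.761 ± 0.0747 TPM (SD, n = 3, log2 fold change -1.12, adjusted p = 5.4e-05), and Ptk7, a pseudokinase of planar cell polarity, from 2.22 ± 0.454 to 1.17 ± 0.0548 TPM (-1.08, adjusted p = 0.00019). Neo1, a receptor of netrins and repulsive guidance molecules, rose from 64.5 ± 9.17 to 94.4 ± 0.228 TPM (log2 fold change 0.46, adjusted p = 0.00024). Flrt2 and Flrt3, which bind Unc5 receptors, rose with log2 fold changes of 0.63 and 0.44 (adjusted p of 2.9e-05 and 0.0025). Dcc, the classical netrin receptor, had at most 11 reads and was not tested.

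Of 53 cytoplasmic effectors tested, 24 changed (45.3%, beside 36.3% of all genes tested). Of these, 9 rose and 15 fell, beside 18% and 18.2% of all genes tested. All 24 were among the 52 with a mean of at least 1 TPM in either group, where 40.1% of all genes changed. Ngef, an exchange factor activated by EphA receptors, had 18.0, 17.6 and 15.8 TPM in the controls and 55.7, 54.4 and 57.0 TPM in the knockouts (log2 fold change 1.61, SE 0.059, adjusted p = 1.8e-09). Chn1, a Rac inactivator downstream of EphA4, rose from 8.59 ± 0.643 to 19.3 ± 0.378 TPM (1.03, adjusted p = 1.5e-07). Enah, an actin regulator that acts downstream of netrin and slit receptors, fell from 12.9 ± 0.687 to 3.95 ± 0.0703 TPM (log2 fold change -1.80, adjusted p = 4e-10). These 3 were the effectors past 2-fold.

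Small GTPases of the Rnd group, which bind plexins, moved apart. Rnd1 rose from 35.0 ± 2.68 to 67.2 ± 1.73 TPM (SD, n = 3, log2 fold change 0.86, adjusted p = 1.5e-07) and Rnd3 fell from 62.2 ± 3.43 to 34.8 ± 2.73 TPM (-0.94, adjusted p = 2.1e-07). Farp2 and Arhgef12, exchange factors that bind type A and type B plexins, rose with log2 fold changes of 0.52 and 0.45 (adjusted p of 0.0012 and 0.00087). Only 18.8% of the Ctrl and 21.2% of the Nfkbiz KO reads of Farp2 lay in exons. Its TPM, made from exon reads, went from 5.13 ± 1.05 to 8.8 ± 0.838. Srgap3, which binds robos, fell with a log2 fold change of -0.68 (adjusted p = 4.2e-05), as did the exchange factors Kalrn and Vav3 (each -0.55, adjusted p of 0.00034 and 0.0066) and Crmp1, a mediator of Sema3a signaling (-0.51, adjusted p = 0.00027).

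**Figure D5:**
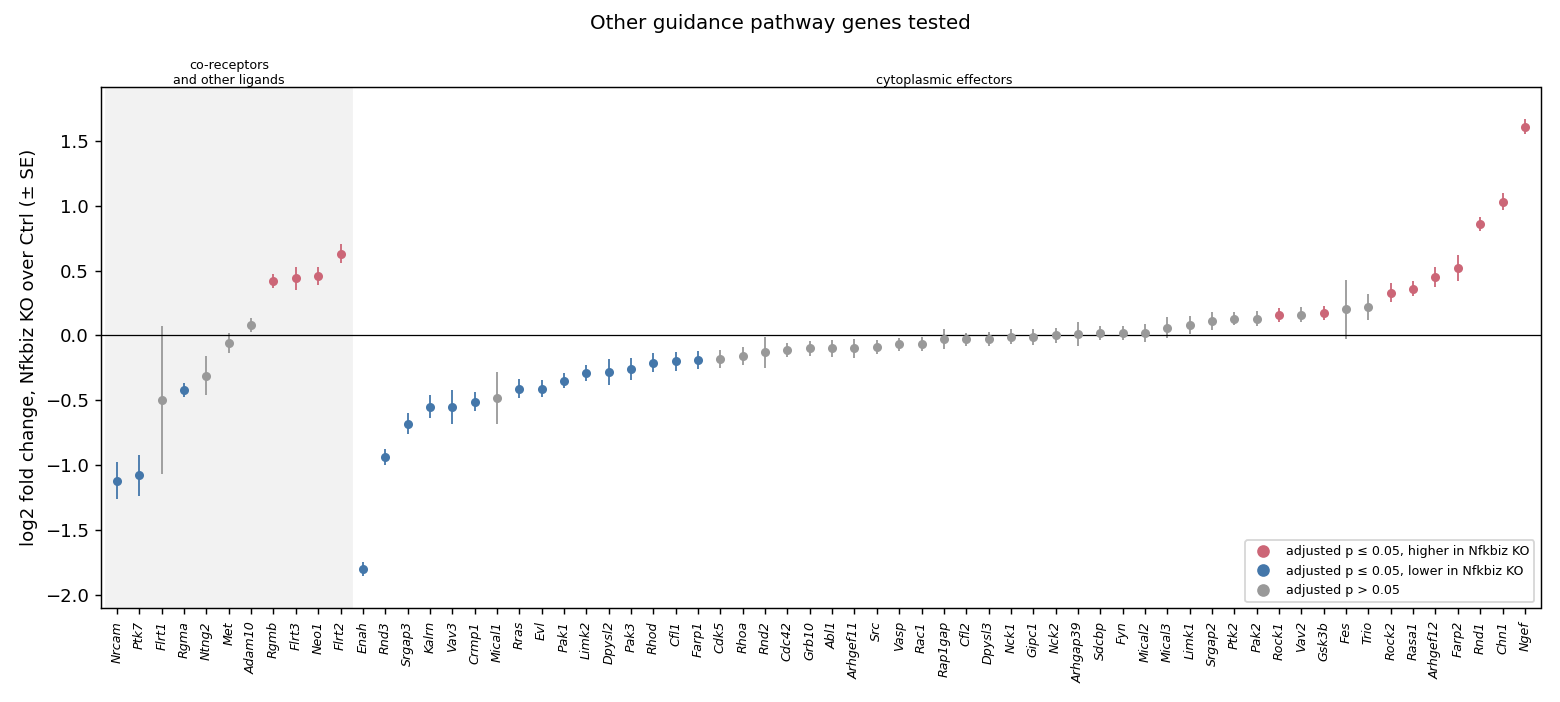
Log2 fold change of Nfkbiz KO over Ctrl (vertical axis, with its SE) for the 64 tested co-receptors, further ligands and cytoplasmic effectors, ordered by size within each group. Red marks the 13 higher and blue the 18 lower at an adjusted p of 0.05 or less, and grey the 33 that did not pass. Enah is lowest at -1.80 and Ngef highest at 1.61.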

How the data were processed

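RNA of D4M-3A cells was sequenced in paired ends from total RNA in 3 Ctrl and 3 Nfkbiz KO samples. Reads were mapped by the authors (CLC Genomics Workbench, default settings) without regard to strand, with up to 10 positions per read, so reads of near-identical copies and of overlapping antisense genes cannot be told apart, and they deposited raw counts per gene (total and uniquely mapped gene reads) with TPM and RPKM made from exon reads. The study's methods name GRCm39 and the submitters' processing notes GRCm38. Gene positions given here are those of GENCODE on GRCm39, matched by symbol.

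Total gene reads were tested with edgeR 4.0.16 in R 4.3.3 (TMM, quasi-likelihood test, no block), keeping genes with at least 10 reads in 3 samples, with Benjamini-Hochberg adjustment over all genes. The SE is the log2 fold change over the square root of F. The study calls replicates independent experiments, the labels do not say how they were separated, and p-values measure the spread between these samples. Alternatives were DESeq2 1.42.0, limma 3.58.1 on log2(TPM + 1) or log2(TPM + 0.1), other filters, RLE factors, uniquely mapped reads, exon reads recovered from RPKM (whole to within 0.001 for 99.2% of genes), the replicate block and leaving out each sample. Of 6 libraries, 96.5% to 96.9% of gene reads were unique, and no 2 replicates were duplicates (chi-square per degree of freedom of 3.54 or more). That value was 3.54 to 6.27 between Nfkbiz KO replicates and 28 to 71.8 between Ctrl replicates. The fit shared the dispersion of a gene between the groups, so this unequal spread was not modelled. Limits of detection cover counting error only.

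Every member is named, and members changed by at least 1.5-fold are given by sample. Of the other pathway genes, the 8 that changed most in each direction are named, with Dcc, chosen after its values were seen. Members and lists were chosen with earlier results of these data known. The comparison of Ctrl replicates and the CpG counts were added after seeing the data.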

Additional observations from a re-analysis of the deposited data

How the results depend on the processing

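Of the 35 members that changed, 20 kept the call in every setting that tested them and none changed sign, and 15 lost it in some setting. Leaving out 1 sample gave 27 to 33 members changed, 8 to 10 past 2-fold and 5 or 6 past the study's thresholds. Over all genes tested, 26.3% to 27.1% changed without an Nfkbiz KO replicate and 31.4% to 38.2% without a Ctrl replicate. With all samples, 36.3% changed. With limma, 4 members were past 2-fold on log2(TPM + 1) and 5 on log2(TPM + 0.1). Members past the study's thresholds were 2 with the difference read in RPKM and 10 without it, where 5.88% of all genes tested passed. No share over all genes was taken for the RPKM count or the limma counts past 2-fold. Nor was it taken for the counts past 2-fold or the study's thresholds with 1 sample left out. The replicate block gave 35 members, the same ones, beside 35% of all genes tested. It changed no call of a member, and left 30 pathway genes changed in place of 31. Deviations of samples with the same number correlated at 0.032, -0.068 and 0.02, so no pairing by number was seen. Whether samples with the same number were prepared together was not tested. Sign changes occurred only in 9 members that did not pass. The cause was not tested. On log2(TPM + 1) and log2(TPM + 0.1), the log2 fold change was 0.024 and 0.192 for Epha1, 0.097 and 0.70 for Epha5, 0.095 and 0.098 for Ntn1, 0.021 and 0.133 for Plxnc1, 0.027 and 0.181 for Sema4d, 0.111 and 0.45 for Slit1, and 0.029 and 0.104 for Unc5c. Exon reads gave 0.038 for Plxnc1, 0.384 for Slit1 and 0.02 for Unc5c, uniquely mapped reads 0.468 for Epha5, the replicate block 0.009 for Unc5c, and Ntn1 was at 0.004 with DESeq2 or RLE factors and 0.005 without a filter. Leaving out 1 sample gave -0.547 to 0.024 for Efnb3, -0.195 to 0.065 for Epha5, -0.056 to 0.061 for Ntn1, -0.587 to 0.23 for Ntn3, -0.595 to 0.262 for Plxnc1, -0.672 to 0.18 for Sema4d, -0.341 to 0.302 for Slit1 and -0.216 to 0.125 for Unc5c.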

Other observations

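Epha5 had 370 to 624 gene reads in every sample, but 0.558% of the Ctrl reads and 3.44% of the Nfkbiz KO reads lay in its exons. Its TPM was 0, 0 and 0.0362 in the Ctrl replicates and 0.0465, 0.0967 and 0.104 in the Nfkbiz KO replicates, so that its count and its TPM give different pictures of the same gene. With limma on log2(TPM + 0.1) it was higher in Nfkbiz KO (log2 fold change 0.70, adjusted p = 0.043), and with gene reads it did not pass (-0.08, adjusted p = 0.66).

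The Ctrl replicates spread more than the Nfkbiz KO replicates in most members. Over the 37 tested members with at least 1 TPM, the SD as a percentage of the mean TPM had a median of 11.1% in Ctrl and 4.54% in Nfkbiz KO, and it was larger in Ctrl in 29 of the 37. This was not taken over all genes. Between whole libraries, chi-square per degree of freedom was 28 to 71.8 for pairs of Ctrl replicates and 3.54 to 6.27 for pairs of Nfkbiz KO replicates. The larger spread in Ctrl was thus not particular to the members.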
